A study of Mus musculus with 48 samples.

Results

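Transcripts of 6 metabotropic glutamate receptor genes (Grm2, Grm3, Grm4, Grm5, Grm7 and Grm8) were followed through 48 RNA-seq libraries of the mouse dentate gyrus. They are 6 of the 55357 genes of the deposited count table, found by matching the table's Ensembl identifiers to gene symbols. All 6 passed the filter for low counts that 21390 genes passed. Each of 24 C57BL/6J mice received a unilateral stereotactic injection of kainate or of saline into the hippocampus. The dentate gyrus of both sides was dissected at day 3, 7 or 14, and by the study's methods only its dorsal part was sequenced. The injected side is called the epileptogenic zone (EZ) and the opposite side the peri-ictal zone (PIZ), in saline-injected mice as well. This gave 12 groups of 4 libraries by region, injection and day, with 2 male and 2 female mice in each according to the series' design text, which does not say which library is from which sex. Age is given as 6 to 8 weeks in that text and as 8 to 10 weeks in the study's methods. Kainate-injected mice were kept only if a motor seizure had been seen, which by those methods held for every mouse given kainate. Every library is bulk tissue, so fewer cells of a type and less RNA per cell cannot be told apart in any value below.

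Metabotropic glutamate receptors are G protein-coupled receptors that set the gain of glutamate synapses on a slower time scale than the ion channel receptors. Group I, represented here by Grm5, couples to Gq and phospholipase C and lies mostly on the postsynaptic side, where Homer and Shank proteins hold it. Group II (Grm2 and Grm3) and group III (Grm4, Grm7 and Grm8) couple to Gi/o, lower cyclic AMP and, on nerve endings, reduce transmitter release. In the dentate gyrus, Grm2 is known from granule cells and their mossy fibers, Grm3 from glia as well as neurons, and Grm7 and Grm8 from presynaptic terminals, including those on interneurons.

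The genes lie on separate chromosomes, except Grm7 and Grm8. Identifiers are those of the deposited table, and positions are in GRCm39 with the Gencode M39 annotation. Grm5 (ENSMUSG00000049583.16) is on chromosome 7 from 87233376 to 87784594, plus strand. Grm2 (ENSMUSG00000023192.13) is on chromosome 9 from 106520294 to 106533870 and Grm3 (ENSMUSG00000003974.7) on chromosome 5 from 9534069 to 9776088, both on the minus strand. Grm4 (ENSMUSG00000063239.18) is on chromosome 17 from 27641361 to 27740377, minus strand. Grm7 (ENSMUSG00000056755.14) on the plus strand and Grm8 (ENSMUSG00000024211.16) on the minus strand are both on chromosome 6, from 110622542 to 111544191 and from 27275118 to 28135177. Exons of Grm2, Grm4, Grm7 and Grm8 overlap unnamed genes of the opposite strand by 475, 135, 600 and 221 bases, which the stranded counting separates. Grm8 also shares 96 exon bases with the microRNA gene Mir592 on its own strand.

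The promoters of the 2 genes that passed the test, Grm5 and Grm8, and of Grm7, whose level moved with that of Grm8, are shown to let their base composition be compared. Each runs from 250 bases before to 50 bases after the canonical transcript start, 5′ to 3′, read from the GRCm39 genome at chr7:87233351-87233650 (plus strand), chr6:110622292-110622591 (plus strand) and chr6:28134495-28134794 (minus strand), and capitals mark a GC box (GGGCGG on either strand).
Grm5: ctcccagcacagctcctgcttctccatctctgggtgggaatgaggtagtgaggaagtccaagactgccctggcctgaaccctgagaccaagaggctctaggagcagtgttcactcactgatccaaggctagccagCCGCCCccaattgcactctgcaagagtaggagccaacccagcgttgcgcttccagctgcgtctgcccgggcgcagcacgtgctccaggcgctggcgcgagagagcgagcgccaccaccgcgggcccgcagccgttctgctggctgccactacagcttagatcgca
Grm7: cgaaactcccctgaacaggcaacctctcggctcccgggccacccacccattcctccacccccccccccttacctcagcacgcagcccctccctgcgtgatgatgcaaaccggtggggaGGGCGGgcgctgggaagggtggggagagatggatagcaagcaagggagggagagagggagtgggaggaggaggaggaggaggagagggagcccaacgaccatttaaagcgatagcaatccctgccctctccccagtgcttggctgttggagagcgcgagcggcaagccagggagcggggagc
Grm8: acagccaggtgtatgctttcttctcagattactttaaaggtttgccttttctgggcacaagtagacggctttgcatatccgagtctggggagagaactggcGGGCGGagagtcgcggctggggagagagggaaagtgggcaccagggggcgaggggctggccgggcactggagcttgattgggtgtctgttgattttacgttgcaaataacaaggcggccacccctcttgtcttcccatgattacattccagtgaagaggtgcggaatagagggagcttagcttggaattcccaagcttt
Each of the 3 holds 1 GC box, Grm2 holds 4, and Grm3 and Grm4 hold none of these letters in the same window. A GC box was found in 42.5% of the promoters of 21770 protein-coding genes. The cyclic AMP response element TGACGTCA and its shorter core TGACG, which the full element contains, were searched on both strands and matched none of the 6 windows, against 2.4% and 22.6% of all promoters. The GC content of the windows was 63.3% for Grm5, 65.7% for Grm7 and 53.7% for Grm8, next to 72.0%, 56.3% and 70.3% for Grm2, Grm3 and Grm4.

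In the 24 saline libraries the 6 receptors covered a wide range of levels. Levels per exon length are given as RPKM, the level in CPM divided by the length of the merged exons. These lengths are of Gencode M39, while the reads were counted on Gencode M28. Grm5 was the most abundant with a median RPKM of 26.2 (range 23.55 to 30.1). Grm2 followed at a median RPKM of 12.6 and Grm7 at 10.3. Grm3 had a median of 5.59, Grm4 of 0.713 and Grm8 of 0.259. Neighbours in this order did not overlap over the 24 saline libraries except Grm2 and Grm7, where Grm2 was the higher in 19 of 24 libraries. Of the RPKM summed over the 6 genes, Grm5 made up 48.1% ± 4.2 (SD, n = 24 libraries from 12 mice) and Grm2 21.2% ± 4.8. Within the saline groups of 4, the coefficient of variation of the level in CPM (counts relative to library size, scaled by TMM) was 3.38% to 7.91% for Grm5 and 2.63% to 11.5% for Grm7. For Grm2 it was 8.12% to 41.6%, the widest of the 4 abundant members. Grm8 rested on 29 to 79 counts in a saline library and Grm4 on 72 to 145. No member differed between the EZ and PIZ of saline-injected mice by edgeR's quasi-likelihood test (0 of 6 at day 3, 7 and 14, and also 0 of 6 at an unadjusted p under 0.05 and by DESeq2 and limma-voom). Of all genes tested, 0.0281% were called there at day 3, 0% at day 7 and 0% at day 14. A gene was called upregulated or downregulated, here and below, at a Benjamini-Hochberg adjusted p under 0.01 over 21390 genes with a fold change over 1.5.

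Kainate against saline in the EZ, the comparison that asks what changes at the injected focus, gave 2 receptors that passed the test. Grm5 was downregulated at day 3 and day 7, and Grm8 was upregulated at day 7. At day 3, 1 of 6 members was called against 24.7% of all genes tested, and at day 7, 2 of 6 against 32.5%. By day 14 no member was called in the EZ (0 of 6 by edgeR, DESeq2 and limma-voom, with 2 of 6, Grm4 and Grm7, and 18% of all genes at an unadjusted p under 0.05), and 2.36% of all genes were. In the PIZ, the comparison that asks what changes outside the focus, no member was called at any day by the same 3 tools. At an unadjusted p under 0.05 there was 1 of 6 in the PIZ at day 3 (Grm3, against 35.7% of all genes) and 0 of 6 at day 7 and day 14. The share of all genes called in the PIZ came to 8.69%, 0.201% and 0.014% for days 3, 7 and 14. The number of members called is thus close to or below the background in each comparison, and none of it marks the receptors as a group.

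**Figure D1:**
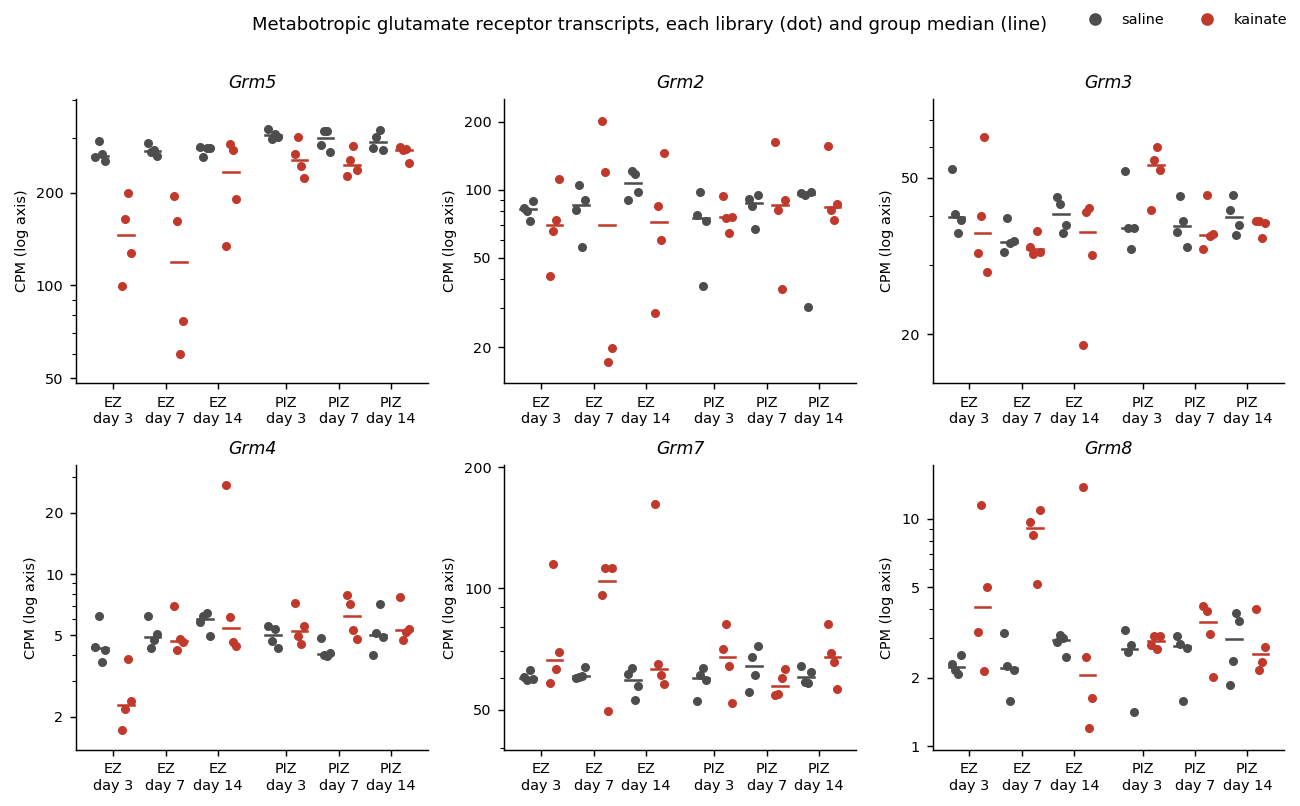
CPM (log axis) of each receptor gene in every library, with the 12 groups along the x axis, saline libraries in grey, kainate libraries in red and the median of each group as a line. Grm5 lies between 60.12 and 200 in the EZ of kainate-injected mice at day 3 and day 7, under all saline libraries, while Grm2 in the EZ at day 7 splits into 2 libraries above and 2 below the saline libraries of that region and day.

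Grm5 encodes mGluR5, the group I receptor of principal neurons and astrocytes. On the injected side at day 3 it was at 99.97, 165, 200 and 127 CPM in kainate-injected mice 38, 30, 44 and 42. The 4 saline mice of that day had 252.6 to 294.5 CPM. All 4 kainate libraries were below all saline libraries. The log2 fold change was -0.86 (SE 0.22, 95% interval -1.30 to -0.42, n = 4 mice a group, edgeR adjusted p = 0.00127), or 1.81-fold lower. Without kainate mouse 38 the change was -0.71 and the edgeR adjusted p 0.0138, which ends the call. At day 7 the kainate values were 195.5, 161.8, 60.12 and 76.78 CPM in mice 23, 26, 21 and 35, against 262.2 to 289.8 in saline. Again the groups did not overlap, and mice 21 and 35 were much lower than the other two. The log2 fold change was -1.15 (SE 0.22, 95% interval -1.59 to -0.71, edgeR adjusted p = 2.79e-05), or 2.22-fold lower. With only the 8 libraries of this comparison in the model the value was -1.16 and the edgeR adjusted p 0.0271, so the call rests on the spread estimated over all 12 groups. At day 14 the kainate mice had 134.4 (mouse 27), 288, 274.9 and 191.1 CPM against 261.3 to 281.5. That difference of -0.31 (SE 0.21, edgeR adjusted p = 0.468) did not pass, and the groups overlapped.

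On the PIZ side Grm5 had 222.5 to 303.0 CPM at day 3 in kainate-injected mice and 298.5 to 322.8 in saline-injected mice. It had 226.5 to 284.0 against 270.6 to 318.2 at day 7, and 250.4 to 282.0 against 275.8 to 318.6 at day 14. The groups overlapped on each day, and 3, 3 and 2 of the 4 kainate libraries lay under all saline libraries. The log2 fold changes were -0.25, -0.25 and -0.12 (SE 0.21 each), none of which passed (edgeR adjusted p = 0.418, 0.63 and 0.999). The 95% intervals reached down to -0.69, -0.68 and -0.55.

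Grm8, a group III autoreceptor of nerve endings, was the scarcest member in saline libraries and the one that passed as upregulated. At day 7 the EZ of kainate-injected mice held 9.69, 8.54, 5.17 and 10.9 CPM in mice 23, 26, 21 and 35. The saline mice had 3.16, 2.26, 1.58 and 2.17 CPM, so every kainate library was above every saline library. The log2 fold change was 1.90 (SE 0.47, 95% interval 0.95 to 2.84, edgeR adjusted p = 0.000717), or 3.73-fold higher. Day 3 was less even. Mouse 30 had 11.5 CPM and mouse 42 had 5.01, but mice 38 and 44 had 3.18 and 2.15, against 2.08 to 2.53 in saline. The difference of 1.27 (SE 0.46, edgeR adjusted p = 0.0229) missed the threshold, and without kainate mouse 44 it was 1.53 and passed (edgeR adjusted p = 0.00766). At day 14 mouse 27 alone was high, at 13.8 CPM, while mice 36, 14 and 40 had 2.47, 1.21 and 1.63, below or within the saline range of 2.46 to 3.10. The fitted change of 0.75 (SE 0.46, edgeR adjusted p = 0.404) became -0.70 without mouse 27. In the PIZ the log2 fold changes of Grm8 were 0.21, 0.38 and -0.05 (SE 0.47 each) at day 3, 7 and 14.

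Grm7 encodes the group III receptor of the presynaptic active zone and was a steady 52.6 to 71.9 CPM in all saline libraries. By day 7 in the EZ, kainate-injected mice 23, 26 and 35 had 96.3, 112 and 113 CPM, all above the saline maximum of 63.8, but mouse 21 had 49.7. That library kept the groups from separating. The log2 fold change of 0.60 (SE 0.22, edgeR adjusted p = 0.0193) missed the threshold with all mice and passed without mouse 21 (0.81, edgeR adjusted p = 0.00197). At day 3 the change was 0.34 (SE 0.22, edgeR adjusted p = 0.204), with mouse 30 at 115 CPM and the other mice at 58.3 to 69.7. At day 14 mouse 27 had 162 CPM and the others 58.02 to 65.02, next to 52.9 to 63.3 in saline, and the change of 0.56 (SE 0.22, edgeR adjusted p = 0.147) did not pass. Mice 30 and 27, the highest at day 3 and day 14 for Grm7, were also the highest for Grm8. Over the 48 libraries the log2 CPM of Grm7 and Grm8 had r = 0.72, and after the group means were removed r = 0.70. In the 24 saline libraries alone r was -0.16. The libraries share mice and groups, and Grm8 counts are low, so these values describe the libraries only.

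Grm4, the remaining group III member, had 1.72, 2.18, 3.83 and 2.39 CPM in the EZ of kainate-injected mice at day 3. Saline mice of that day had 3.71 to 6.23 CPM. All but mouse 44 were under the saline libraries, and the change of -0.88 (SE 0.35, edgeR adjusted p = 0.0353) missed the threshold. At day 7 the values, 4.25 to 6.99 CPM, overlapped the saline range of 4.34 to 6.26, with a difference of 0.01 (SE 0.34, edgeR adjusted p = 0.976). At day 14 mouse 27 stood at 27.4 CPM, while mice 36, 14 and 40 had 6.18, 4.64 and 4.43, next to 4.97 to 6.47 in saline. The fitted change of 0.86 (SE 0.33, edgeR adjusted p = 0.139) turned to -0.21 without mouse 27. The PIZ changes were 0.16, 0.57 and 0.12 (SE 0.34 each) at day 3, 7 and 14.

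The group II genes did not pass in any comparison of kainate with saline by edgeR. Grm2, the presynaptic receptor of mossy fibers, was uneven between mice. On the injected side at day 7, mice 23 and 26 had 202 and 120 CPM and mice 21 and 35 had 17.3 and 19.8, against 55.6 to 105 in saline. The kainate libraries lay on both sides of the saline range, so a mean describes none of them. The fitted change was 0.11 (SE 0.49, 95% interval -0.87 to 1.10, edgeR adjusted p = 0.857), whereas the mean of log2 CPM was 5.75 ± 1.80 (SD, n = 4) against 6.34 ± 0.39, a difference of -0.59 (exact permutation p = 0.514). The sign also turned to -0.66 without mouse 23, and limma-voom with quality weights, which lets libraries count unequally, called Grm2 downregulated at -1.42 (adjusted p = 0.00882). At day 3 the EZ values of Grm2 were 41.4, 65.4, 73.5 and 111 CPM in mice 38, 30, 44 and 42, and at day 14 they were 28.4, 84.3, 59.8 and 146 in mice 27, 36, 14 and 40. The changes of -0.16 and -0.42 (SE 0.49 each) had edgeR adjusted p = 0.816 and 0.689.

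Grm3, the group II receptor shared by astrocytes and neurons, did not pass in the EZ at day 3 or day 7. Its kainate values there were 28.8 to 63.5 CPM at day 3 and 31.9 to 36.6 at day 7, and those of saline were 36.2 to 52.5 and 32.4 to 39.4. The changes were -0.03 and -0.06 (SE 0.18 each), with 95% intervals of -0.40 to 0.34 and -0.44 to 0.31. The day 3 value rests on mouse 44, which had the 63.5 CPM, and without it the change was -0.32 (SE 0.17, edgeR adjusted p = 0.128), while limma-voom over all libraries put it at -0.42 (SE 0.12, adjusted p = 0.00328), under the fold threshold. In the PIZ at day 3 the kainate mice had 41.3, 55.6, 59.7 and 52.3 CPM and the saline mice 52.1, 37.3, 32.9 and 37.3. All but mouse 38 were higher than all saline libraries, and the change of 0.39 (SE 0.18, edgeR adjusted p = 0.121) did not pass.

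**Figure D2:**
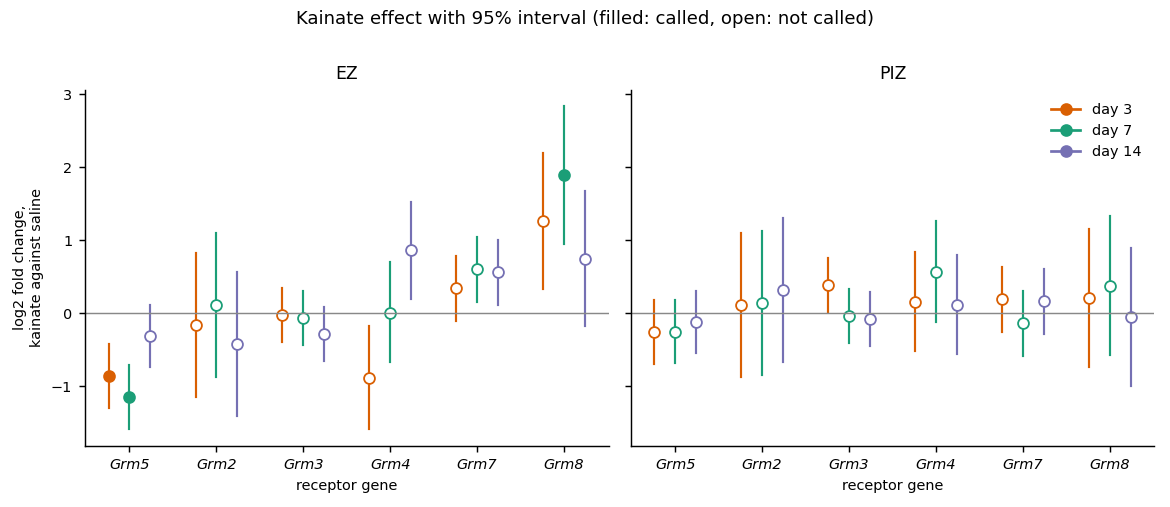
Log2 fold change of kainate against saline for each receptor gene in the EZ and the PIZ at day 3, 7 and 14, with its 95% interval from the edgeR model (n = 4 mice a group). Filled points passed the test, namely Grm5 in the EZ at day 3 (-0.86) and day 7 (-1.15) and Grm8 in the EZ at day 7 (1.90), and all PIZ points are open.

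Taking single-library values, the kainate and saline groups did not overlap for 1 of 6 members in the EZ at day 3 (Grm5) and for 2 of 6 at day 7 (Grm5 and Grm8). Of all genes tested, 42.4% and 43.8% did not overlap in those comparisons. Each of these 3 had an exact permutation p of 0.0286, the smallest that 4 mice against 4 allow, and 0.257 after adjustment over the 36 tests of this kind. In the EZ at day 14 and in the PIZ all members overlapped, where 8% of all genes (EZ, day 14) and 30.7%, 12.9% and 7.18% (PIZ, day 3, 7 and 14) did not.

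The receptor transcripts were also taken as shares of their sum. In the EZ at day 7 Grm5 made up 24.2% ± 2.9 (SD, n = 4) of the summed RPKM in kainate-injected mice and 47.7% ± 3.4 in saline-injected mice. The Grm7 share was 36.7% ± 12.6 against 19.3% ± 1.3, and that of Grm8 2.1% ± 0.8 against 0.4% ± 0.1. The lowest Grm5 share in saline, 44.38%, was above the highest in kainate, 26.31%. At day 3 the Grm5 shares were 31.1% ± 4.5 against 46.4% ± 2.4. At day 14 they were 38.5% ± 12.2 against 44.5% ± 2.6, with a range of 23.96% to 49.86% among kainate mice. In the PIZ the Grm5 share was 43.6% ± 1.4 (42.21% to 45.58%) against 51.8% ± 3.8 (47.59% to 56.86%) at day 3, again without overlap. The Grm5 level in CPM did overlap there and was not called (edgeR adjusted p = 0.418), while 30.7% of all genes did not overlap. The PIZ share was 44.6% ± 8.1 against 48.7% ± 3.5 at day 7 and 44.3% ± 4.5 against 49.3% ± 6.4 at day 14. Shares add up to a whole, so a fall of Grm5 raises the others, and they are given without a test.

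**Figure D3:**
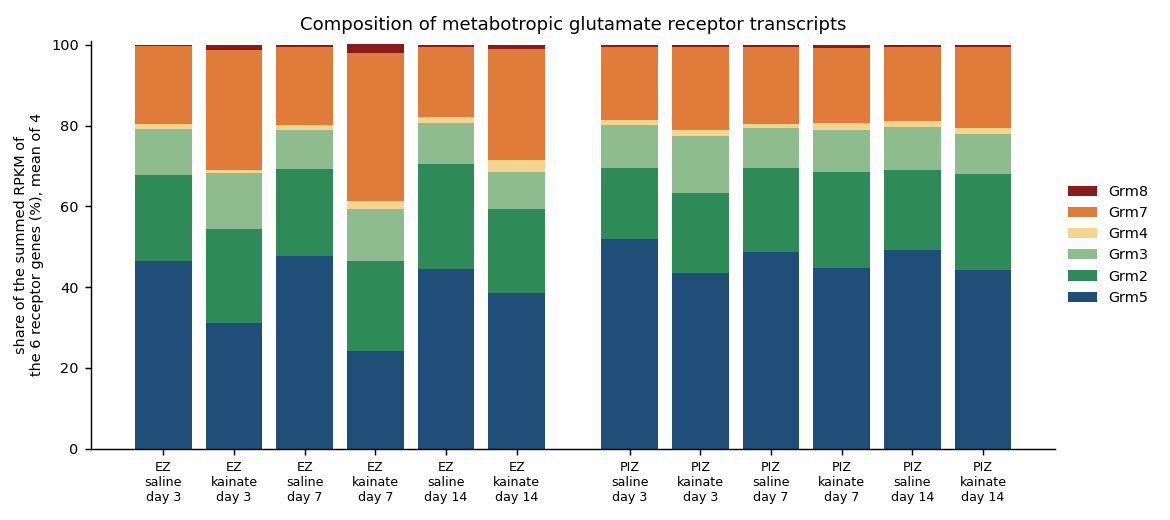
Mean share of each receptor gene in the summed RPKM of the 6 genes (%, mean of 4 libraries) in the 12 groups. In the EZ at day 7 the Grm5 share is 24.2% with kainate and 47.7% with saline, and the Grm7 share is 36.7% and 19.3%.

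Whether the effect of kainate differed between the sides was tested as the difference of the EZ and PIZ effects. No member passed it at day 3, 7 or 14 (0 of 6 each by edgeR and by DESeq2), where 0.0655%, 9.89% and 0% of all genes did. At an unadjusted p under 0.05 there were 1, 3 and 0 of 6 members, and 17.9%, 40.2% and 7.3% of all genes. The nearest at day 7 were Grm5 at -0.90 (SE 0.30, edgeR adjusted p = 0.0257), Grm7 at 0.74 (SE 0.31, edgeR adjusted p = 0.0718) and Grm8 at 1.52 (SE 0.66, edgeR adjusted p = 0.0789). Without kainate mouse 23 the Grm5 difference was -1.26 and passed (edgeR adjusted p = 0.00191). By limma-voom with quality weights 3 members were called at day 7 (Grm5, Grm7 and Grm8) and 3 at day 3 (Grm3, Grm4 and Grm5), where this tool called 24% and 8.78% of all genes. An effect of kainate restricted to the EZ was therefore not shown by the main test for Grm5 or Grm8.

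Both sides of the same mouse can also be set against each other. Grm5 was lower in the EZ than in the PIZ in all 4 kainate-injected mice at day 3, by a mean log2 difference of -0.85 ± 0.46 (SD, n = 4), and in all 4 at day 7, by -1.18 ± 0.92. In saline-injected mice the corresponding means were -0.20 ± 0.13, also lower in 4 of 4, and -0.11 ± 0.12. Grm8 was higher in the EZ in all 4 kainate-injected mice at day 7, by 1.35 ± 0.72, and in 1 of 4 saline-injected mice, with a mean of -0.15 ± 0.19. Grm4 was lower in the EZ in all 4 kainate-injected mice at day 3 (-1.15 ± 0.73) and day 7 (-0.27 ± 0.31) and higher in all 4 saline-injected mice at day 7 (0.26 ± 0.11). Grm3 was higher in the EZ in all 4 saline-injected mice at day 3 (0.08 ± 0.06), where no kainate was given. The exact sign-flip p of each of these sets in which all 4 mice moved one way is 0.125, the smallest that 4 pairs allow. These sets were picked from those of every receptor, injection and day, so chance alone gives some of them. In the remaining sets the mice moved both ways. How many of all genes moved one way was not tested.

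**Figure D4:**
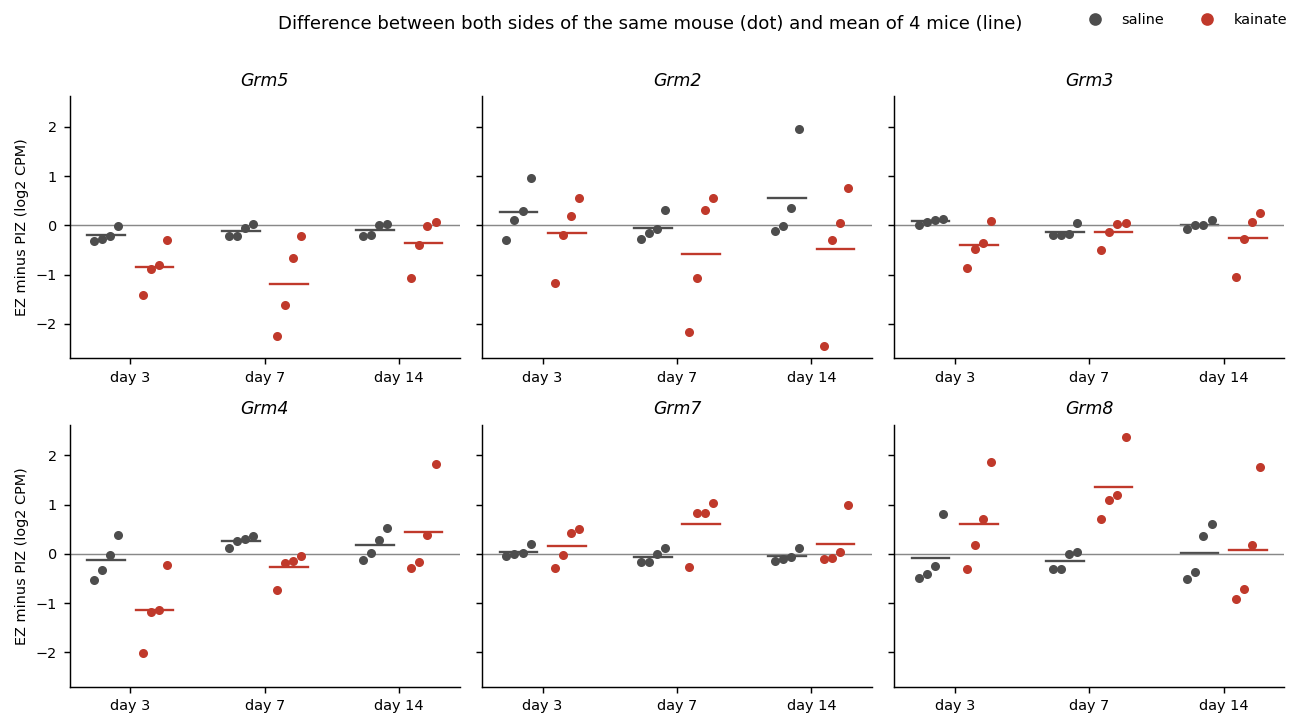
EZ minus PIZ difference in log2 CPM within each mouse (dot) at day 3, 7 and 14, saline in grey and kainate in red, with the mean of 4 mice as a line. The Grm5 differences of kainate-injected mice are all under 0 at day 3 and day 7, and the Grm8 differences at day 7 are all over 0.

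The course over the days was tested as the change of the kainate effect between successive days. No member passed from day 3 to day 7 or from day 7 to day 14 in either region (0 of 6 each by edgeR and by DESeq2, while limma-voom called 2 of 6, Grm5 and Grm8, from day 7 to day 14 in the EZ, where it called 29.5% of all genes, and no member in the other intervals). The background by edgeR was 0.145% and 0.271% of all genes in the EZ and 0.0234% and 0% in the PIZ. At an unadjusted p under 0.05 there was 1 of 6 members in the EZ from day 7 to day 14 (33.1% of all genes) and 0 of 6 in the other intervals. That member was Grm5, whose effect weakened by 0.84 (SE 0.30, edgeR adjusted p = 0.0535). This passed without kainate mouse 27 (1.02, edgeR adjusted p = 0.00697) and without kainate mouse 23 (1.15, edgeR adjusted p = 0.0041). The corresponding change of Grm8 was -1.15 (SE 0.65, edgeR adjusted p = 0.212), and without mouse 27 it was -2.60 and passed (edgeR adjusted p = 0.000148).

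Markers of cell types moved in the same libraries. Of 7 pan-neuronal markers such as Rbfox3 and Snap25, 4 were downregulated in the EZ by day 3 and 6 by day 7, and none was upregulated. Their summed CPM was 2180 to 3843 in kainate-injected and 5013 to 6074 in saline-injected mice at day 3, and 1515 to 3846 against 5089 to 6415 at day 7. At day 14 the kainate range was 3247 (mouse 27) to 5679. The level of Grm5 and this sum had r = 0.96 over the 48 libraries (Spearman's rho 0.75, r = 0.93 without the 2 libraries farthest from the median sum) and r = 0.99 over the 12 EZ libraries of kainate-injected mice. In the 24 saline libraries r was 0.36. Over the 48 libraries other marker sums had r of similar size with Grm5, at -0.89 for microglia, 0.88 for CA3 pyramidal cells, -0.81 for infiltrating leukocytes and 0.80 for choroid plexus. For Grm8, r was -0.75 with choroid plexus, -0.72 with CA3 pyramidal, 0.64 with astrocyte, 0.64 with microglial and -0.59 with pan-neuronal markers. Microglial markers rose, with 7, 8 and 6 of 8 upregulated in the EZ at day 3, 7 and 14 and 8 of 8 in the PIZ at day 3. Their summed CPM in the EZ at day 7 was 1847 to 6982 against 477.4 to 525.4. Astrocyte markers of the EZ gave 3 of 9 upregulated and 2 downregulated at day 3 and 5 upregulated at day 7. The part of these markers in the change of Grm5 or Grm8 was not tested.

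Grm2 followed the granule cell markers (7 genes, Prox1 and C1ql2 among them, and defining for the dissected tissue), all of which were detected in every library. Over the 48 libraries r was 0.81 (Spearman's rho 0.67, r = 0.69 without the 2 libraries farthest from the median sum). Within the groups, after their means were removed, r was 0.91, and in the 24 saline libraries it was 0.97. In the EZ at day 7 the summed granule cell markers were 814.2 and 743.6 CPM in mice 23 and 26, where Grm2 was high. They were 136 and 238.1 in mice 21 and 35, where it was low. Saline mouse 39, with the lowest Grm2 of all saline libraries (30.1 CPM in the PIZ at day 14), also had the lowest sum of its group, 407.3 CPM, where the group median was 932.2. Of the 7 markers, 3 were downregulated in the EZ at day 3 and 3 at day 7, and 2 in the PIZ at day 3. In the EZ at day 3 and day 7, markers of mossy cells gave 1 up and 2 down of 4 each time, and interneuron markers 5 and 4 down of 8. For CA1 pyramidal cells 2 and 3 of 4 fell, for CA3 pyramidal cells 3 and 3 of 4, and 3 and 4 of 4 markers of oligodendrocyte precursors rose. Endothelial markers rose in 2 of 4 at both days, oligodendrocyte markers in 0 and 2 of 6, and leukocyte markers in 1 of the 3 that could be tested. Of 4 thalamic markers 1 fell at day 3 and 1 rose at day 7, and 1 of 3 tested choroid plexus markers fell at both days. The part of these markers in the levels of Grm2 was not tested.

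**Figure D5:**
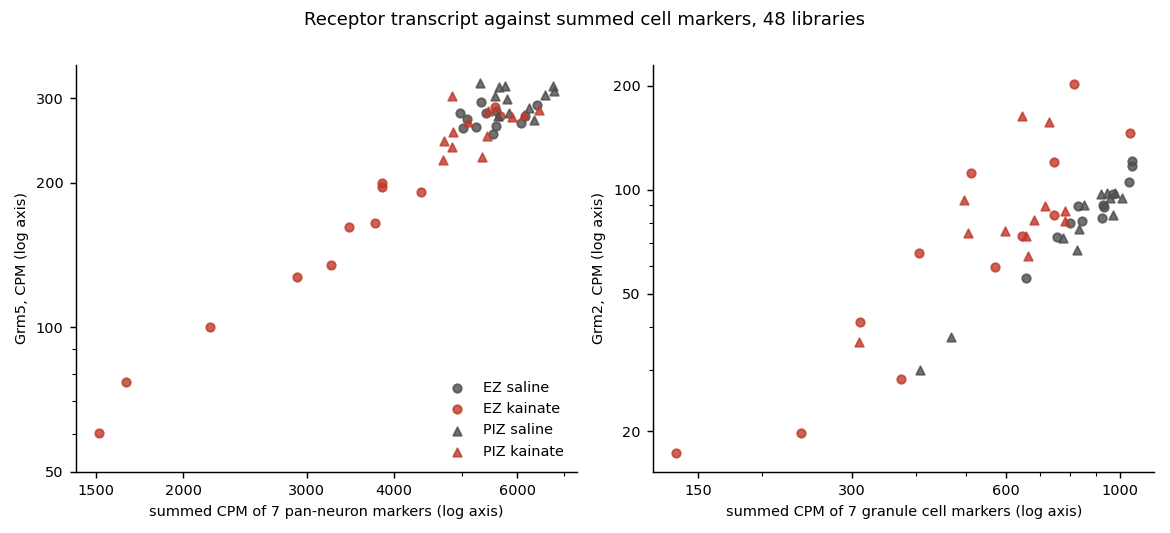
CPM of Grm5 against the summed CPM of 7 pan-neuronal markers, and CPM of Grm2 against the summed CPM of 7 granule cell markers, all on log axes, with each of the 48 libraries as a point (circles EZ, triangles PIZ, grey saline, red kainate). Points of both panels run from low to high together, with r = 0.96 for Grm5 and r = 0.81 for Grm2.

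The genes whose log2 CPM most resembled each receptor over the 48 libraries were as follows, with Pearson's r as the measure of likeness. For Grm5 they were Zdhhc17 (0.978), Akap11 (0.975) and Scai (0.975), and after removal of group means Akap11 (0.959), Enah (0.953) and Scai (0.943). For Grm2 they were Cacna1h (0.959), Neurod2 (0.931) and Abcb10 (0.927), and after removal Cacna1h (0.98), Slc8a2 (0.965) and Neurod2 (0.953). Cacna1h encodes a T-type calcium channel and Neurod2 a transcription factor of excitatory neurons. For Grm7 they were Spock3 (0.877), Ncam2 (0.876) and Zfp92 (0.832), and after removal 1700025G04Rik (0.901), Ncam2 (0.875) and Spock3 (0.86). Ncam2 is a cell adhesion molecule of axons. For Grm8 they were Ctnnb1 (0.877), Tll1 (0.869) and Nrg1 (0.869), and after removal Tceal9 (0.878), Ctnnb1 (0.86) and Arxes1 (0.853). Ctnnb1 encodes beta-catenin and Nrg1 neuregulin. Grm3 and Grm4 had weaker matches. The best for Grm3 were Klhl24 (0.735), Dsg2 (0.703) and Stra6 (0.683), or Cep68 (0.766), Dync1i2 (0.755) and Gucy1a1 (0.742) after removal. For Grm4 they were Nmbr (0.806), Dner (0.74) and Htr2a (0.721), or Cd70 (0.783), Scrg1 (0.762) and Brinp3 (0.756). The 48 libraries are pairs from 24 mice in 12 groups, so these values describe shared movement and carry no test.

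The signaling partners of the receptors moved most in the EZ, at day 3 and day 7. Of 72 genes in 6 lists of transducers, scaffolds, partners, glutamate handling and desensitization, 8 were upregulated and 27 downregulated at day 3. At day 7 the counts were 10 and 30. These lists were chosen with earlier results of these data known. Of all 21390 genes, 24.7% were called at day 3, 3439 up and 1841 down. At day 7, 32.5% were called, 4413 up and 2547 down. In the same libraries 4 and 6 of the 7 pan-neuronal markers fell, with median log2 fold changes of -0.62 and -1.21, next to -0.39 and -0.45 for the 72 genes, and the part of this fall in the lists was not tested. At day 14 it was 1 upregulated (Adcy7) and none downregulated, where 2.36% of all genes were called. At an unadjusted p under 0.05 there were 14 of 72 then (19.4%, against 18% of all genes). In the PIZ 5 rose and 5 fell at day 3, where 8.69% of all genes were called, 1523 up and 335 down. None passed there at day 7 or day 14 by edgeR, where 0.201% and 0.014% of all genes did. At an unadjusted p under 0.05 there were 11 and 1 of 72 (15.3% and 1.39%, against 14.5% and 5.97% of all genes). The EZ effect differed from the PIZ effect for 7 genes upward and 13 downward at day 7 (9.89% of all genes called, 1498 up and 617 down). At day 3 and day 14 it differed for none of the 72 (0.0655% and 0% of all genes called). At an unadjusted p under 0.05 there were 25 and 5 of 72 then (34.7% and 6.94%, against 17.9% and 7.3% of all genes).

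Among the transducers of group I, 12 genes, 3 were upregulated and 7 downregulated in the EZ at both day 3 and day 7, with a median log2 fold change of -0.85 against 0.03 and 0.01 over all genes. Prkca, a protein kinase C, fell by 1.26 (SE 0.18, edgeR adjusted p = 1.02e-06) at day 3, and Gnaq, the Gq alpha subunit, fell by 0.73 (SE 0.11, edgeR adjusted p = 1.29e-06). The 3 that rose were Plcb3, Itpr2 and Itpr3, at both days. In the PIZ at day 3, Plcb3 and Itpr2 rose and Itpr1 and Prkcb fell. Of 10 scaffold genes of group I, 5 fell and none rose at each of these days in the EZ. Frmpd4, which links mGluR5 to Homer, fell by 1.74 (SE 0.18, edgeR adjusted p = 9.23e-09) at day 3 and was also down in the PIZ (-0.71, SE 0.18, edgeR adjusted p = 0.00294). Homer2 fell by 1.86 (SE 0.37, edgeR adjusted p = 7.74e-05). Shank3 and Ncdn fell at both days, Homer3 at day 3 and Shank2 at day 7. Homer1, whose short form is an immediate early product, did not pass, with 0.75 (SE 0.40, edgeR adjusted p = 0.127) at day 3 in the EZ and -1.0 (SE 0.41, edgeR adjusted p = 0.0696) in the PIZ.

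Of 20 transducers of groups II and III, 3 rose and 5 fell at day 3 and 3 rose and 6 fell at day 7 in the EZ. Gnao1, the Go alpha subunit, fell by 0.60 (SE 0.08, edgeR adjusted p = 4.46e-07) and Gnai1 by 1.56 (SE 0.21, edgeR adjusted p = 5.07e-07) at day 3. Adcy1, Adcy9 and Gnaz fell at both days, and Adcy2 and Gnb5 at day 7. The 3 that rose at both days were Gnai2, Gnai3 and the adenylyl cyclase Adcy7, of which Gnai2 and Adcy7 are known to be abundant in immune cells. Adcy7 was at 2.14 (SE 0.40, edgeR adjusted p = 3.91e-05) at day 3 and 3.48 (SE 0.42, edgeR adjusted p = 3.74e-08) at day 7. In the PIZ at day 3, Adcy7 and Gnai2 rose and Adcy1 and Gnai1 fell. Of 8 partners of group III receptors, 4 fell by day 3 and 6 by day 7 in the EZ, where none rose. Elfn1 and Elfn2, adhesion proteins that face group III receptors across the synapse, fell by 1.10 (SE 0.29, edgeR adjusted p = 0.00191) and 1.29 (SE 0.22, edgeR adjusted p = 1.56e-05) at day 3. Calm3, a calmodulin gene, fell by 0.91 (SE 0.17, edgeR adjusted p = 3.2e-05). Calm2 and Grip1 fell at day 7.

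The genes of glutamate and N-acetylaspartylglutamate supply and clearance, 13 in all, gave none up and 4 down at day 3 and 2 up and 4 down at day 7 in the EZ. Slc1a2, the main glial glutamate transporter, fell by 0.95 (SE 0.14, edgeR adjusted p = 2.1e-06) at day 3 and was at 0.01 (SE 0.14, edgeR adjusted p = 0.975) at day 7. Slc17a8, a vesicular glutamate transporter, fell by 3.40 (SE 0.51, edgeR adjusted p = 2.19e-06) at day 3 and was also down at day 7. Rimkla, a synthase of the peptide, fell at both days, Glul at day 3, and Slc1a1 at day 7, when Naalad2 and Slc1a3 rose. Folh1, which cleaves this peptide agonist of Grm3, did not pass, at 0.11 (SE 0.24, edgeR adjusted p = 0.731) and 0.67 (SE 0.24, edgeR adjusted p = 0.0146). Of 9 desensitization genes, 2 rose and 2 fell at each of these days. Rgs4, which shortens Gq and Gi signaling, rose by 2.46 (SE 0.24, edgeR adjusted p = 4.01e-09) at day 3 in the EZ and by 1.75 (SE 0.24, edgeR adjusted p = 2.88e-06) in the PIZ, the only gene of that list called there. Rgs2 rose at both days and Arrb2 at day 7, and Grk3 and Rgs8 fell at both days. Grk2, the receptor kinase, was at -0.39 (SE 0.07, edgeR adjusted p = 1.43e-05) at day 3, a change under the fold threshold. Genes of these lists given without values, and Adcy7, were chosen after their values were seen.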

How the data were processed

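Paired-end reads of polyA RNA were trimmed by the authors with fastp 0.20.1, aligned with HISAT2 2.2.1 to GRCm39 and counted by strand on Gencode M28 genes with featureCounts of Subread 1.6.4 (versions per the submitters' processing notes). A multi-mapping read was counted at its primary alignment. The deposited values were raw counts per gene, with 17762656 to 25712975 per library and a median of 22108562.5.

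From these counts, edgeR 4.0.16 (R 4.3.3) filtered genes with filterByExpr over the 12 groups and scaled libraries by TMM (factors 0.934 to 1.097). A quasi-likelihood model with 12 group means was fitted to all 48 libraries. It was also run on simulated libraries that were independent and had the same spread of a gene in every group. That run does not cover paired libraries of a mouse or unequal spread between groups. The 16 comparisons used the study's thresholds, 0.01 for the adjusted p and 1.5 for the fold change, with adjustment over the genes of 1 comparison. Standard errors were the absolute log2 fold change divided by the square root of F. Single-library values were taken as log2 CPM (prior count 2) and compared by 2-sided exact permutation or sign-flip tests. The 2 libraries of a mouse come from the same animal, and their residuals correlated between -0.054 and 0.376, so mouse entered as a block in an alternative. No 2 libraries were identical, and p-values measure the spread between mice of 1 experiment.

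Of the table's identifiers, 98.9% matched Gencode M39. Genes named are the 6 receptors, the 3 genes most like each, and, of each list, the 2 of lowest p at day 3 on the injected side plus Homer1, Elfn1 and Folh1. Other list genes, Adcy7 among them, were named after their values were seen. Some genes counted in the lists are not reported here by name. The members and lists were chosen with earlier results of these data known. Alternatives were DESeq2 1.42.0, limma-voom (limma 3.58.1) with quality weights, RLE size factors, no filter, the compared groups alone, an adjusted p under 0.05, a prior count of 0.5, a block for mouse, and the omission of each mouse.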

Additional observations from a re-analysis of the deposited data

Results flagged for a closer look

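Over 72 sets of 4 libraries (6 genes in 12 groups), 4 had a library far from the other three by Dixon's criterion, where chance gives about 1 in 20. Grm7 in the EZ of kainate-injected mouse 27 at day 14 was at 7.34 on the log2 CPM scale, and the others lay between 5.86 and 6.02. Grm2 in the PIZ of saline-injected mouse 39 at day 14 was at 4.92, next to 6.57 to 6.61. Grm3 in the PIZ of kainate-injected mouse 14 at day 14 was at 5.14, next to 5.27 to 5.28. Grm5 in the EZ of saline-injected mouse 28 at day 14 was at 8.03, next to 8.12 to 8.14, and the last 2 gaps are small in size.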

How the results depend on the processing

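Under the alternatives, 1456 of 1500 values of single receptors kept their direction and their side of the threshold. Counted as kept were 76 that changed sign but moved by less than 1 standard error of the edgeR value over all libraries. Most of the 1500 belong to values that were not called at the outset, so this count says little about the 3 calls. The Grm5 call at day 3 ended without kainate mouse 38, and that at day 7 with the compared groups alone. The Grm8 call at day 7 held throughout. With all libraries modeled, RLE size factors, no filter and DESeq2 left the number of called receptors as it was in each comparison, and so did the mouse block in the comparisons between sides, where Grm5 at day 7 was at -1.06 (edgeR adjusted p = 0.0165). A prior count of 0.5 left the same 3 sets of groups without overlap. The number called in the EZ at day 3 went from 1 to 3 (Grm4, Grm5 and Grm8) with an adjusted p under 0.05 and with limma-voom with quality weights, which called 29.9% and 32.8% of all genes. In the EZ at day 7 it went from 2 to 1 (Grm8, 20% of all genes) with the compared groups alone, and to 3 with an adjusted p under 0.05 (Grm5, Grm7 and Grm8, 37% of all genes) and by limma-voom (Grm2, Grm5 and Grm8, 36.3%). The difference between EZ and PIZ went from 0 to 3 by limma-voom at day 3 and at day 7 (8.78% and 24% of all genes), and to 1 (Grm5, 20.5% of all genes) at day 7 with an adjusted p under 0.05. From day 7 to day 14 in the EZ limma-voom called 2 (Grm5 and Grm8, 29.5% of all genes). Leaving out single mice gave 0 to 2 receptors in the EZ at day 3, 2 to 3 at day 7, 0 to 1 for the difference between sides at day 7 and 0 to 2 from day 7 to day 14 in the EZ, where the share of all genes called ranged from 18.2% to 27.5%, 25.2% to 36.6%, 0.00463% to 17.3% and 0.0046% to 18.8%.

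The values without 1 mouse ranged as follows where a sign turned. Grm2 in the EZ at day 7 ranged from -0.66 to 0.46, its change from day 7 to day 14 from -1.01 to 0.24 and from day 3 to day 7 from -0.51 to 0.62. Grm4 in the EZ at day 14 ranged from -0.21 to 1.12, from day 7 to day 14 from -0.23 to 1.11 and between sides from -0.17 to 0.97. Grm8 ranged from -0.70 to 1.07 in the EZ at day 14 and from -0.43 to 1.07 between sides, and Grm7 between sides from -0.01 to 0.52. The following values turned sign and lay more than 1 standard error of the edgeR value over all libraries away from it, though several are near 0. By limma-voom, Grm2 in the EZ at day 7 was at -1.42, its change from day 7 to day 14 at 0.93 and from day 3 to day 7 at -1.64. Grm3 was at 0.05 from day 7 to day 14, 0.34 from day 3 to day 7 and 0.12 between sides at day 14. At day 14 in the EZ, Grm4 was at -0.12 and Grm8 at -0.70. Between sides at day 14, Grm4, Grm7 and Grm8 were at -0.26, -0.01 and -0.72, and Grm4 from day 7 to day 14 was at -0.07. Without kainate mouse 44, Grm3 was at 0.25 from day 3 to day 7. The low ends for Grm2 are without kainate mouse 23 (for the change to day 14 the high end), and those for Grm4, Grm7 and Grm8 without kainate mouse 27. The cause of these changes was not tested. With 4 mice a group, intervals of Grm2 and Grm8 for kainate against saline span about 1 log2 unit to either side. Those between sides or days are wider, such as -1.67 to 1.13 for Grm2 between sides at day 3. Grm8 rests on 29 to 79 counts in a saline library and Grm2 on 615 to 2595.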
